A study of Mus musculus with 182 samples.

Results

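The genes described here are those through which a germinal centre B cell receives or gives signals during its contact with T cells, or receives the survival signal BAFF, and they were followed across 182 single mouse cells: Fas, Cd40, Tnfrsf13c, Icosl, Il21r, Il4ra and Ifngr1. They were chosen by symbol, and each had 1 row among the 17034 genes of the deposited table, so 7 of 17034 genes are described. The mice were C57BL/6 and had received an injection into the peritoneal cavity of 100 µg of the hapten NP coupled to the carrier protein KLH (23 haptens per carrier), with 50% alum and 1 µg of lipopolysaccharide. Spleen cells were taken 13 days later, depleted of cells with CD3, CD4, CD8, CD11c or IgD on their surface, and sorted as B220-positive, GL7-high germinal centre B cells gated on Fas protein. The sample labels call them high for Fas and binding NP, whereas the text on the design gives Fas as positive and lists NP only among the stains. Single cells were captured and reverse-transcribed on a Fluidigm C1 chip, and libraries were made with Nextera XT. All cells belong to 1 condition, and no label ties a cell to an animal, so the cells are 1 sample: shares and correlations across cells are descriptions, and no test between animals was possible. No age or number of mice is given in the sources used here.

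In the germinal centre, B cells divide and mutate their antibody genes in a dark zone and then compete in a light zone for antigen and for contact with follicular helper T cells. The helper T cell presents CD40 ligand, which drives NF-kB signalling through CD40, and secretes interleukin 21 and interleukin 4, whose receptors signal through Janus kinases and STAT proteins; the B cell in turn presents ICOS ligand to the T cell. BAFF receptor, the product of Tnfrsf13c, is a survival receptor of mature B cells, Fas is a death receptor that marks germinal centre B cells in flow cytometry, and the interferon gamma receptor is linked to class switching to IgG2c in this strain.

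Values are the authors' normalized, non-log values, and a cell was counted as having a gene at a value of 1 or more. The table falls into 2 blocks, cells 1 to 96 (set 1, 96 cells) and cells 97 to 182 (set 2, 86 cells), in which the lowest value of each gene, its floor, differs. The labels do not say what the blocks are, so the main relations are also given within each. A cell of set 1 had a median of 1904 genes at 1 or more (1873 to 1946) and a cell of set 2 had 1690 (995 to 1741), while genes above floor numbered 2666 and 2188.5 in the median cell. Read depth is unknown, and whether the values are scaled to gene length is not given, so levels are compared between cells and not between genes. A share of cells at a fixed minimum also depends on the scale of a gene, so an order of genes by share describes this table only. The sorted identity was checked on 10 germinal centre and B cell genes fixed for this purpose: 7 of them were found in over 50% of cells, among them Cd79b in 98.9% and Mef2b in 75.8%. The other 3 were S1pr2 in 45.1%, Gcsam in 34.1% and Pax5 in 33.5%. Among 8 listed follicular B cell genes, Fcer2a passed 50% of cells, at 50.5%. Another 4 lay between 10% and 50%, among them Cr2 at 40.1%, and 3 lay under 10%. At least 2 of these 8 were found in 97 cells. For Tnfrsf13c the gap was widest, at 60.1% of cells with it and 28.2% of the others. Among 6 listed plasma cell genes 5 had a row, and Igj passed 50%, at 55.5%. Of 9 listed T cell genes 5 had a row: Cd3d and Cd4 were found in 0 of 182 cells, Cd28 in 3 and Il7r in 12, while Lck was found in 99. A count of 0 limits the share to 1.65% if 3 counts are taken as the smallest number seen reliably.

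All 7 genes matched the GENCODE M21 annotation of the mouse genome (mm10) as protein-coding. Fas lies at chr19:34290666-34327772 (plus strand), Cd40 at chr2:165055627-165072948 (plus), Tnfrsf13c at chr15:82221743-82224369 (minus) and Icosl at chr10:78069302-78083913 (plus). Il4ra at chr7:125552120-125579474 and Il21r at chr7:125603429-125633570 are neighbours on the plus strand with 23954 bases between them, and Ifngr1 lies at chr10:19591949-19610229 (plus). Il4ra is overlapped on the opposite strand by the antisense gene Gm44876 over 1342 bases, and Fas on its own strand by the small RNA gene Gm27818 over 159 bases. The library kit does not mark strand, so reads of these stretches cannot be told apart. Promoter sequences from RefSeq (GRCm38.p6, the assembly of mm10) were matched for 6 of the 7 genes, Cd40 being the gene without an entry. The 250 bases before the RefSeq start are printed 5′ to 3′ on the gene's own strand for the 4 genes found in the most cells, which include Fas and Ifngr1, the pair whose values ran in opposite directions. Capitals mark the GC box GGGCGG and the STAT site letters TTCNNNGAA, searched on both strands.
Tnfrsf13c promoter, chr15:82224381-82224630, minus strand: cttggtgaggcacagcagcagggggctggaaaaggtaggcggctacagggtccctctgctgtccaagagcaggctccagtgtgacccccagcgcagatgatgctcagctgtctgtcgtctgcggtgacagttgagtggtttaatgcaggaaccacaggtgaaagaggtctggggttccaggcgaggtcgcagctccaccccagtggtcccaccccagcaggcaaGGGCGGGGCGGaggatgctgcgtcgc
Il21r promoter, chr7:125603179-125603428, plus strand: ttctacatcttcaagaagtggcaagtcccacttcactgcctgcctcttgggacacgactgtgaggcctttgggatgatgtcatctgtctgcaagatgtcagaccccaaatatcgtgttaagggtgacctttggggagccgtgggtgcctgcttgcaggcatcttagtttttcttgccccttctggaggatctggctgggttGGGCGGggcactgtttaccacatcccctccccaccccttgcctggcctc
Fas promoter, chr19:34290409-34290658, plus strand: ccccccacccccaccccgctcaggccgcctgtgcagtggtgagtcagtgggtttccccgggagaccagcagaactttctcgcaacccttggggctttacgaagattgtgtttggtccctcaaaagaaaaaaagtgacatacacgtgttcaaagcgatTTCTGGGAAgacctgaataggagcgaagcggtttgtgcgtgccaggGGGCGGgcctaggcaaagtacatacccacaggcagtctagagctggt
Ifngr1 promoter, chr10:19591699-19591948, plus strand: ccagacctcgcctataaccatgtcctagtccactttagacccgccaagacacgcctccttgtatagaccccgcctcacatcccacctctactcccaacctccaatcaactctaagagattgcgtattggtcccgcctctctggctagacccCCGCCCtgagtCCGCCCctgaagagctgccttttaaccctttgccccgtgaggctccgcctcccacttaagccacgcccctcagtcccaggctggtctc
The Fas window held 1 GC box and 1 STAT site, and it was the 1 window with a STAT site among the 6 genes. The letters TTCNNNGAA occur in 7.02% and GGGCGG in 32.7% of the 32851 RefSeq promoter windows of this length. The Ifngr1 window held 2 GC boxes, both on the opposite strand, the Tnfrsf13c window 2 that share 1 base, and the Il21r window 1. All 6 windows held a GC box. CG dinucleotides numbered 10 in Tnfrsf13c, 4 in Il21r, 11 in Fas and 11 in Ifngr1, against a median of 6 over all windows. These are matches of letters, not measured binding sites.

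The shares of cells with a gene spanned 17.0% to 78.6%, and their median over the 7 genes was 46.2%, against 4.95% over the 15094 genes found in any cell. Tnfrsf13c stood first, and its interval did not overlap that of any other of the 7 genes. Il21r, Fas and Ifngr1 followed in order, with overlapping intervals, and Il4ra, Cd40 and Icosl formed a lower group whose intervals overlapped one another and stayed below those of the genes above them. Intervals are exact (Clopper-Pearson, 95%) and cover counting error only.

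Among the receptors of the tumour necrosis factor family, Tnfrsf13c was found in 143 of 182 cells (78.6%, interval 71.9 to 84.3). In the cells that had it, its value ran from 1.03 through a median of 18.6 to a highest of 1228. The share was 86.5% in set 1 and 69.8% in set 2, with intervals that overlapped (78.0 to 92.6 and 58.9 to 79.2). The related receptors for BAFF and APRIL were rarer: Tnfrsf13b, which encodes TACI, was found in 44 cells (24.2%) and Tnfrsf17, which encodes the plasma cell receptor BCMA, in 1 cell. At a value of 1 or more, Tnfrsf13c was thus found in the most cells of the 3 genes, and the part of differing gene scales in this order was not tested.

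Fas was found in 91 of 182 cells (50.0%, interval 42.5 to 57.5), although every cell had passed a gate on Fas protein. Its value in these cells ran from 1.06 through a median of 28.9 to 6105, and 29 of the 91 cells were at 100 or more. Set 1 had Fas in 60.4% of cells (interval 49.9 to 70.3) and set 2 in 38.4% (28.1 to 49.5), and these intervals narrowly missed each other. Cells of set 2 also had fewer genes at 1 or more (median 1690 against 1904). How many of all genes have intervals apart between the sets was not counted, so this is not read as a trait of Fas. The median among cells with Fas stood the other way round, at 16.7 in set 1 and 48.0 in set 2. Genes that carry the death signal from Fas were found in fewer cells: of 7 listed, 4 lay between 10% and 50% of cells, with Bid, a cleaved link to the mitochondrial pathway, in 35.7% and Casp8, the initiator caspase, in 28.0%, and 3 lay under 10%, among them the adaptor Fadd at 9.34%.

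Cd40 was found in 42 of 182 cells (23.1%, interval 17.2 to 29.9), with a lowest value in these cells of 1.26, a median of 7.77 and a highest of 5046. In contrast to Fas, its share was lower in set 1 (18.8%, interval 11.5 to 28.0) than in set 2 (27.9%, interval 18.8 to 38.6), with overlapping intervals. Few cells carried most of the signal, since 11 of the 42 were at 100 or more. Cell 14 of set 1 held the highest Cd40 and the highest Tnfrsf13c value of all cells and, at 2662 and level with cell 53, the highest Fas value of set 1, while Icosl, Il4ra and Ifngr1 were listed at 0 in it.

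Icosl, the ligand that engages ICOS on helper T cells, was the least often found, in 31 of 182 cells (17.0%, interval 11.9 to 23.3). Its value in these cells ran from 1.01 through a median of 10.9 to 1159. It was found in 20.8% of set 1 and 12.8% of set 2, with overlapping intervals. Another 17 cells had Icosl above its floor but below 1. Of other surface molecules that engage T cells, some were rarer, with Cd80 in 6 cells, Cd274 (PD-L1) in 5 and Pdcd1lg2 (PD-L2) in 4. Others were found more often than Icosl, with Cd86 in 54 cells and Slamf6 in 48.

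Among the cytokine receptor chains, Il21r was found in 96 of 182 cells (52.7%, interval 45.2 to 60.2), with values from 1.03 through a median of 19.1 to 1888. Its share was 55.2% in set 1 and 50.0% in set 2, so the sets overlapped. Ifngr1, the ligand-binding chain of the interferon gamma receptor, was found in 84 cells (46.2%, interval 38.8 to 53.7), with values from 1.02 through a median of 7.73 to 889. It too overlapped between the sets, at 51.0% and 40.7%. Il4ra, the interleukin 4 binding chain, was found in 50 cells (27.5%, interval 21.1 to 34.6), with values from 1.03 through a median of 7.82 to 723, and its shares of 28.1% and 26.7% were the closest between the sets of any of the 7 genes. Of 20 related receptors and surface molecules listed for comparison, 0 passed 50% of cells and 14 lay under 10%, among them the interleukin 6 receptor chain Il6ra at 3.30% and Il10ra at 3.30%.

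**Figure D1:**
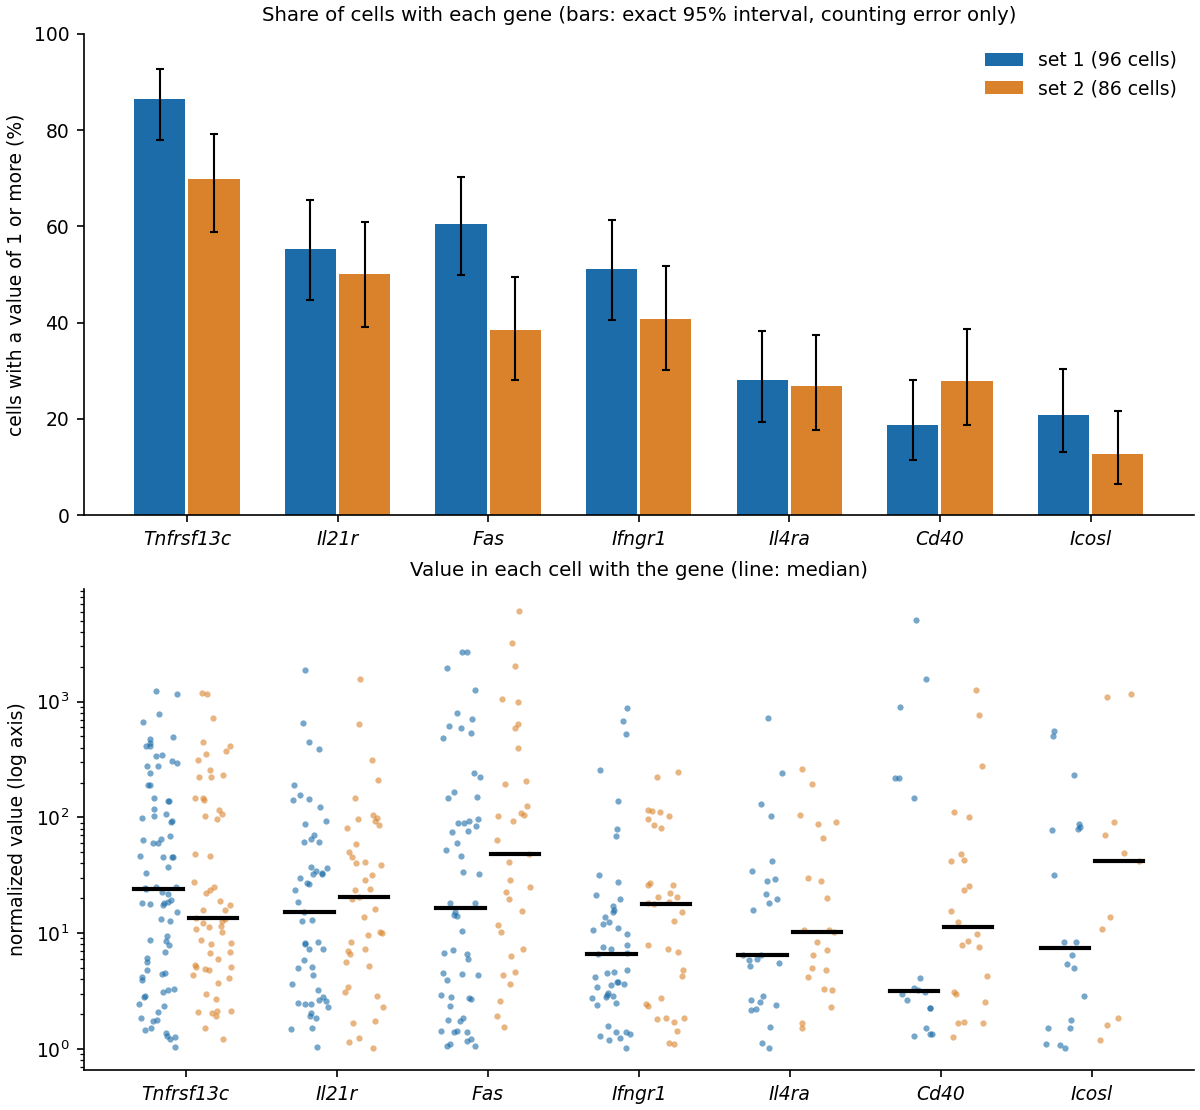
Upper panel: share of cells (%) with a value of 1 or more for each gene in set 1 (96 cells) and set 2 (86 cells), with exact 95% intervals for counting error only. Lower panel: normalized value on a log axis, 1 point per cell with the gene and a line at the median. Tnfrsf13c leads in both sets.

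A receptor for a cytokine needs its partner chain. With Il2rg or Ifngr2 as partner, both chains were found in 13.2% to 14.3% of cells. Il2rg itself was found in 33.0% of all cells and Ifngr2 in 21.4%, which limits these shares. The partner was found more often in cells with Il4ra or Ifngr1 than in the others, and less often in cells with Il21r. Il21r was found together with Il2rg, the common gamma chain, in 26 of 182 cells (14.3%). Il2rg was found in 27.1% of cells with Il21r and in 39.5% of the others, and Spearman's rho across cells was -0.40 in set 1 and -0.08 in set 2. Il4ra stood the other way: Il2rg was found in 48.0% of its cells and in 27.3% of the others, and rho was 0.14 and 0.20 in the sets. Il13ra1, the alternative partner of Il4ra, was found in 1 cell. Ifngr1 and its signalling chain Ifngr2 were both found in 26 cells, and Ifngr2 was found in 31.0% of cells with Ifngr1 against 13.3% of the others, with rho of 0.23 and 0.16 in the sets. Il21r and Il4ra, the neighbours on chromosome 7, were both found in 27 cells, where the product of their shares within the sets gives 26.4, and rho was -0.00 in each set.

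The ligands were nearly absent from the sorted cells. Of 9 listed ligands 4 had a row, all under 10% of cells: Cd40lg was found in 1 cell, Icos in 2, Tnfsf13 (APRIL) in 2 and Il21 in 0 of 182, with the same upper limit of 2.01% as for Cd4. Among the 12 listed Janus kinase and STAT genes, Jak1, which all 3 cytokine receptors use, was found in 66.5% of cells, Stat6 in 31.3% and Stat3 in 28.6%. Feedback inhibitors that these receptors induce were rare, with Socs1 in 1 cell, Socs3 in 3 and Cish in 0 of 182.

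A cell had 2.95 ± 1.32 (SD over 182 cells) of the 7 genes. None was found in 5 cells, 1 in 20, 2 in 43, 3 in 50, 4 in 43, 5 in 17 and 6 in 4 cells, and 0 cells had all 7. If the genes were found independently at their shares within each set, the same counts would be 2.71, 17.8, 45.1, 57.8, 40.4, 15.1 and 2.80, with 0.200 cells having all 7. These are close to the counts over all cells, but less so within the sets. In set 1, 21 cells had 3 genes where the product gives 31.6, with 24 against 20.0 at 2 genes and 29 against 25.4 at 4. In set 2, 29 cells had 3 genes against 26.2, and 19 had 2 genes against 25.1. The 4 cells with 6 genes were all in set 1. The most frequent combinations were Fas with Tnfrsf13c, and these with Il21r, in 12 cells each. The mean was 3.21 ± 1.31 (SD over 96 cells) in set 1 and 2.66 ± 1.28 (SD over 86 cells) in set 2.

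The 21 pairs of genes had a median rho of -0.01 over all cells, 0.03 in set 1 and 0.00 in set 2. A pair was called when rho was at or beyond 0.1 in the same direction in both sets. By this rule 2 of the 21 pairs were positive and 1 was negative, and of all 32410 pairings of these 7 genes with genes found in at least 10% of cells in each set, 4.55% were positive and 5.22% negative. With so few pairs, counts of 2 and 1 are near those shares. With all values under 1 tied, 3 pairs were positive and 1 negative, against 4.56% and 4.75% of pairings, and given the number of genes above floor 2 and 1, against 4.60% and 4.19%. Fas with Ifngr1 was the negative pair in each case. Cells within a set share whatever made the sets differ, and for 6 of the 7 genes most cells lie below a value of 5.

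The negative pair was Fas and Ifngr1. Its rho was -0.24 over all 182 cells, -0.25 in set 1 and -0.28 in set 2, and it was -0.26 after accounting for set and for the number of genes above floor. Ifngr1 was found in 37.4% of cells with Fas and in 54.9% of cells without it. The same difference was seen in each set, with 43.1% against 63.2% in set 1 and 27.3% against 49.1% in set 2, although the intervals overlapped within each set and over all cells. Both genes were found in 34 cells, where the product of their shares within the sets gives 43.0. Among the 34 cells with both, rho was -0.25. Pearson's r on log2(value + 1) was -0.21, and -0.19 without the 2 cells farthest from the median.

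**Figure D2:**
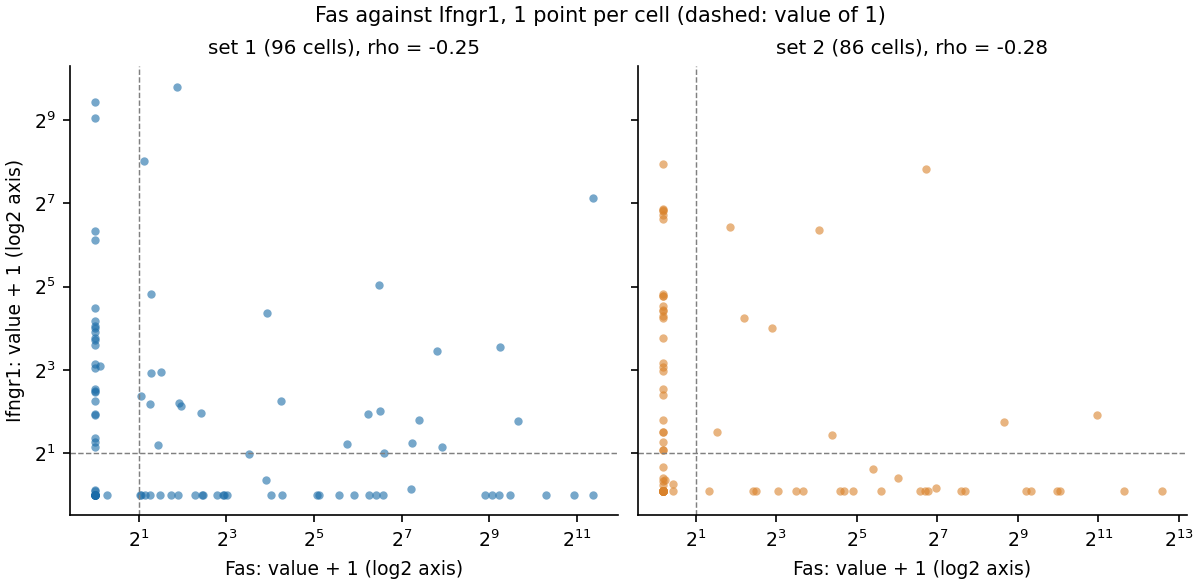
Fas (x axis) against Ifngr1 (y axis), both as value + 1 on log2 axes, 1 point per cell, in set 1 (left, 96 cells) and set 2 (right, 86 cells); dashed lines mark a value of 1. Cells high in 1 of the genes lie mostly along the axes, and rho is -0.25 in set 1 and -0.28 in set 2.

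Both positive pairs involved Icosl, and neither was called with values under 1 tied. Icosl and Il4ra had rho of 0.23 in set 1 and 0.18 in set 2, but 11 cells had both at 1 or more. With values under 1 tied rho was 0.12 and 0.04 in the sets, and the pooled value was 0.09 in place of 0.31. Icosl and Cd40 had rho of 0.12 and 0.14 within the sets and -0.04 over all cells. The floors of these genes differ between the sets in opposite ways, with Cd40 at 0.0228 and 0 and Icosl at 0 and 0.0344 in sets 1 and 2, and with values under 1 tied the pooled rho was 0.11, and 0.16 and 0.09 within the sets. The 3 pairs called positive with values tied were Cd40 with Tnfrsf13c (0.13 and 0.11), Icosl with Il21r (0.17 and 0.12) and Tnfrsf13c with Il4ra (0.11 and 0.15). Icosl and Cd40 were both found in 10 cells, where the product of their shares gives 6.82.

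**Figure D3:**
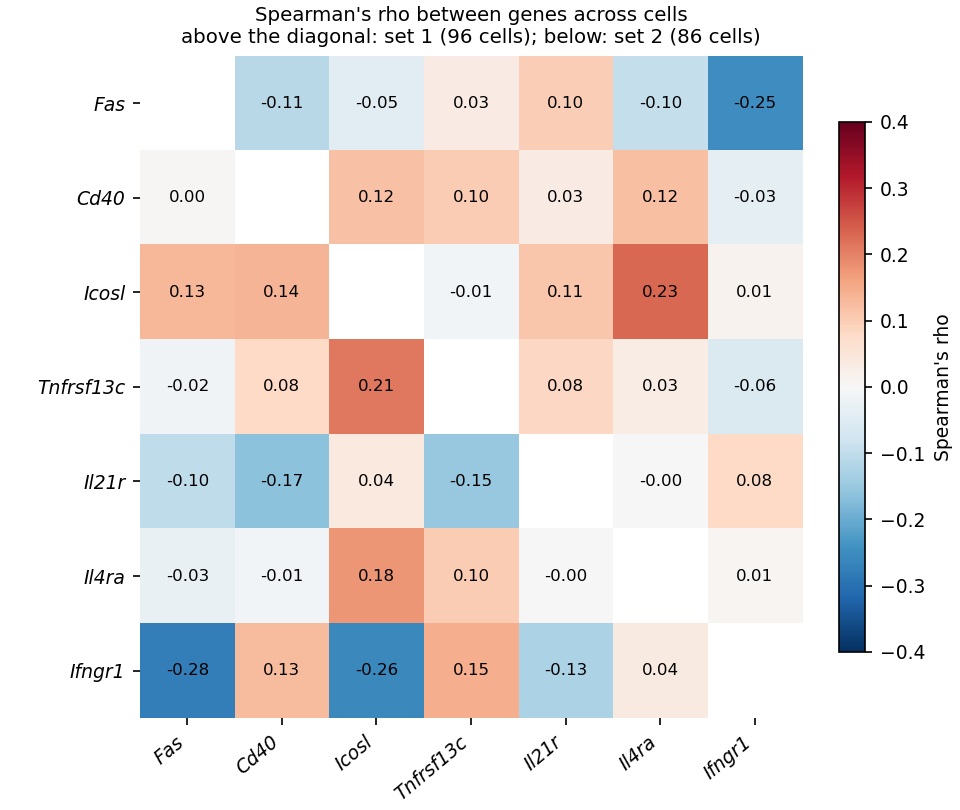
Spearman's rho between each pair of the 7 genes across cells, with set 1 (96 cells) above the diagonal and set 2 (86 cells) below, coloured by rho. The cells of Fas and Ifngr1 are the 1 pair at or below -0.1 on both sides, and Cd40 with Icosl and Icosl with Il4ra are the 2 pairs at or above 0.1 on both sides.

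Some myeloid RNA moved with Ifngr1. Of 8 listed myeloid genes 7 had a row, all in under 10% of cells and none at 0 in every cell. Tyrobp, a signalling adaptor of myeloid and natural killer cells, was found in 9 cells, all of them with Ifngr1, and 13 of the 15 cells with the lysozyme gene Lyz2 had Ifngr1. The other 5 markers did not go with Ifngr1: it was found in 2 of the 8 cells with Cd14, 2 of 4 with Itgam, 1 of 3 with Csf1r, 1 of 2 with Fcer1g and 0 of 3 with C1qa. The summed value of the 7 markers ran from 0.134 to 1165 in cells with Ifngr1 and from 0.134 to 166 in the others, with a median of 0.208 in both. All 7 cells with at least 2 myeloid genes had Ifngr1, and 6 of them were in set 1. Without these 7 cells the share of Ifngr1 was 44.0% of 175 cells, and rho of Fas and Ifngr1 was -0.23.

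The zone relation was read from Cd83, a light zone surface marker, and Cxcr4, the chemokine receptor that holds cells in the dark zone. Cells with Cd83 but not Cxcr4 numbered 53, and cells with Cxcr4 but not Cd83 numbered 52. A gene was called when its share differed by at least 10 percentage points in the same direction in both sets. By this rule 1 of the 7 genes was higher in the Cd83-only cells, against 3.75% of the 5409 genes found in at least 10% of cells, and 0 were lower, against 5.55%.

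The 1 called gene was Icosl, found in 16 of 53 Cd83-only cells (30.2%, interval 18.3 to 44.3) and in 4 of 52 Cxcr4-only cells (7.69%, interval 2.14 to 18.5). The difference was 23.3 points in set 1 and 20.5 points in set 2, and the intervals of the pooled shares met at their edge. In set 2 it rested on 5 of 20 against 1 of 22 cells. At a minimum of 5 the difference was 14.5 and 20.0 points in the sets. Counting every value above the floor it was 31.5 and 6.82 points, so that Icosl was no longer called. Cells with both markers had Icosl in 17.1% and cells with neither in 11.9%. Over all cells Cd83 was found in 71.0% of cells with Icosl and in 43.7% of cells without it. The Cd83-only cells had fewer genes above floor (median 2398) than the Cxcr4-only cells (median 2632), and the part of this in the Icosl difference was not tested.

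For the other 6 genes the intervals of the classes overlapped. Il4ra was found in 37.7% of Cd83-only and 21.2% of Cxcr4-only cells, a difference of 22.4 points in set 1 and 7.27 in set 2. Ifngr1 lay 10.4 points lower in the Cd83-only cells, by -14.2 and -5.00 points in the sets. Il21r differed by 20.0 points in set 1 and by -14.5 in set 2, and Fas by -5.76 and 27.7, so neither had 1 direction at a minimum of 1. At a minimum of 5 in the same classes, Fas differed by 18.2 and 17.7 points and Il21r by 15.5 and 7.73. Fas thus met the rule of 10 points at that minimum, for which no share over all genes is given here. Cd40 was found in 24.5% and 25.0% of the classes, with differences of 4.24 and -6.82 points in the sets, and Tnfrsf13c in 83.0% and 78.8%, with differences of -2.12 and 11.4 points.

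A light zone score, the mean standardised value of 14 listed genes including Cd83, Cd86 and Nfkbia, gave another view of zone. Tnfrsf13c followed this score in both sets, with rho of 0.30 and 0.26, where the median gene had -0.03 and 0.01. By the rule for pairs 1 of the 14 genes, Rel, was called with Tnfrsf13c. With Cd83 alone, rho of Tnfrsf13c was 0.16 and 0.08 in the sets. With Cd86 alone, a costimulatory molecule of the light zone, rho of Tnfrsf13c was 0.35 in set 1 and -0.01 in set 2. Il21r had 0.31 in set 1 and 0.12 in set 2, and Icosl had 0.26 and 0.09. Cd40 had 0.30 in set 1 and 0.01 in set 2, so its relation was seen in 1 set alone. Fas had 0.04 and 0.03, and Ifngr1 changed sign, at -0.10 and 0.15. Against a dark zone score of 8 genes including Cxcr4 and Foxo1, Tnfrsf13c had rho of -0.14 and -0.15, and Il21r had 0.06 and 0.25. The median gene had -0.01 and -0.03 with that score.

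**Figure D4:**
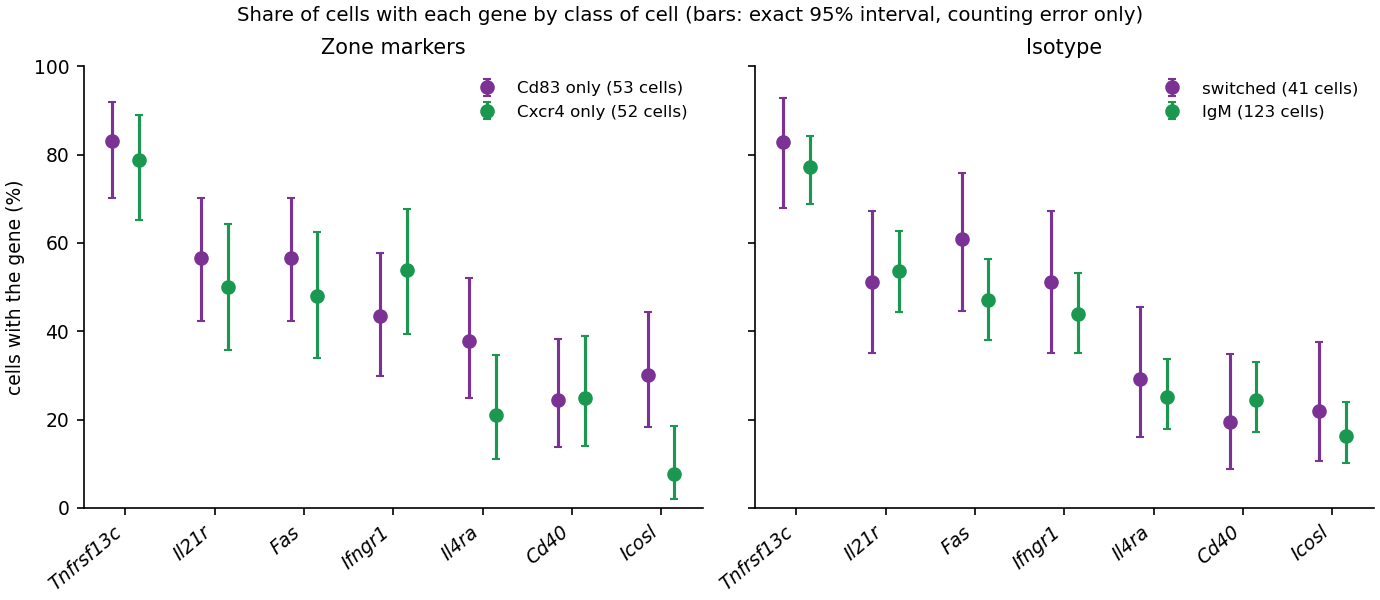
Share of cells (%) with each gene in 2 pairs of classes, Cd83-only against Cxcr4-only cells (53 and 52) and switched against Ighm-dominant cells (41 and 123), with exact 95% intervals for counting error only. Icosl stands at 30.2% against 7.69% in the zone classes, and the intervals of the isotype classes overlap for every one of the 7 genes.

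Division genes ran opposite to Tnfrsf13c, Ifngr1 and Il4ra, though not both division genes in each case. Mki67, a marker of cycling cells, had rho of -0.25 and -0.25 with Tnfrsf13c in the sets and -0.21 and -0.35 with Ifngr1. Its median value was 11.6 in cells with Ifngr1 and 56.1 in the others, and 26.0 in cells with Tnfrsf13c and 63.8 in the others. Top2a, which untangles replicated DNA, had rho of -0.29 and -0.25 with Tnfrsf13c, and -0.22 and -0.05 with Ifngr1, so that for Ifngr1 the relation to Top2a was weak in set 2. Il4ra had rho of -0.21 and -0.15 with Top2a, whose median was 10.7 in cells with Il4ra and 41.4 in the others. Among all genes, 3.97% ran negative with Tnfrsf13c, 5.05% with Ifngr1 and 3.95% with Il4ra by the rule for pairs.

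The number of genes above floor also moved with some members. Il21r had rho of -0.20 and -0.43 with it in the sets, where the median gene had 0.10 and 0.14, and 14.1% of genes ran negative with Il21r against 3.93% positive. Cells of set 2 with Il21r had a median of 1926 genes above floor, and those without it 2359. Cd40 had rho of 0.04 in set 1 and 0.35 in set 2. After accounting for set and this count, rho over all cells was 0.23 for Il21r with Malat1 and 0.26 for Cd40 with Nfkbie, relations described next.

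**Figure D5:**
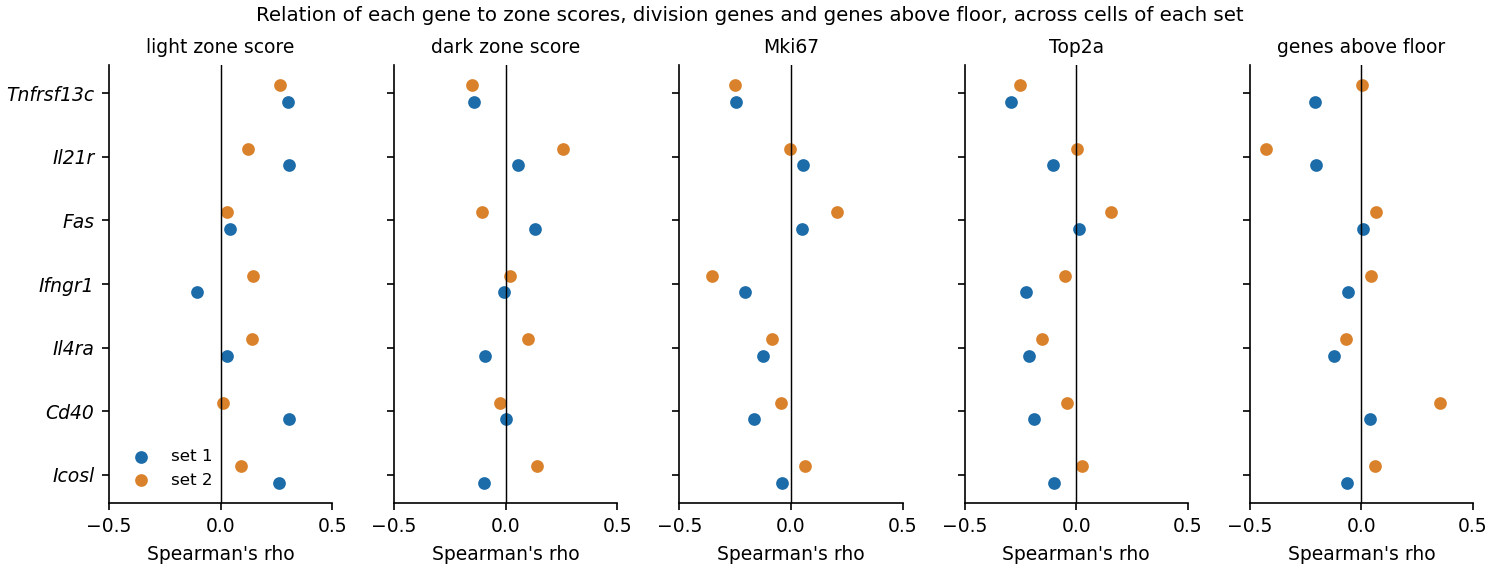
Spearman's rho of each gene with the light and dark zone scores, the division genes and the number of genes above floor, across the cells of set 1 and of set 2. Tnfrsf13c lies right of 0 for the light zone score and left of 0 for Mki67 and Top2a in both sets, and Il21r lies left of 0 for genes above floor in both.

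The genes most like each member were ranked by the lower of the rho values in the 2 sets over 4630 genes, so each is the extreme of a long list. Tnfrsf13c had B cell genes at the top: Cd74, the invariant chain of MHC class II (0.33 and 0.33), Ms4a1, which encodes CD20 (0.31 and 0.28), and Lat2, an adaptor of B cell receptor signalling (0.32 and 0.26). Cd74 had a median of 2211 in cells with Tnfrsf13c and 913 in the others, and Ms4a1 226 and 46.6. Fas had Zwilch, a kinetochore gene (0.28 and 0.31), the MHC class II gene H2-Eb1 (0.31 and 0.24) and Vps16 (0.26 and 0.23). Il21r had RNAs that are not messengers of proteins: the ribosomal RNA precursor Rn45s (0.30 and 0.30), the nuclear RNA Malat1 (0.30 and 0.31) and Kcnq1ot1 (0.32 and 0.28). Malat1 was found in all 182 cells, with a median of 2184 in cells with Il21r and 1395 in the others.

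For the 4 other genes the most like were mostly genes found in few cells. Ifngr1 had Zfp119a, Msh6 (a mismatch repair gene) and Mto1, with lower rho values of 0.31, 0.28 and 0.26. Cd40 had Cstb, Gpn3 and Evi2b, at 0.33, 0.31 and 0.31. Icosl had Plxnc1, Suco and Arhgap27, at 0.26, 0.24 and 0.23. Il4ra had Parp10, Rpl21 and Tmf1, at 0.22, 0.20 and 0.19. Cstb was found in 24 cells, 11 of them with Cd40, and its rho with Cd40 was -0.06 over all cells, where the floors of the sets differ, and 0.33 within each set.

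Genes of the NF-kB pathway were set beside the receptors that signal through it. Of 19 listed, 14 were found often enough to be ranked, and 5 of these ran positive with Cd40 in both sets, against 7.24% of all genes: the kinase Chuk, the subunits Nfkb1 and Rel, and the inhibitors Nfkbia and Nfkbie. None of the 14 ran negative with Cd40, against 2.89% of all genes. The count was lower under both alternatives: given the number of genes above floor 3 were positive (Chuk, Rel and Nfkbie), against 4.77% of all genes, and with values under 1 tied 2 were (Nfkb1 and Nfkbie), against 4.51%, and in both Traf3, an adaptor that restrains the pathway, ran negative. Nfkbie, a feedback inhibitor, had rho of 0.41 and 0.30, and it was found in 45.2% of cells with Cd40 and in 21.4% of the others. With values under 1 tied its rho with Cd40 was 0.27 and 0.19, and Pearson's r was 0.10 and 0.13 in the sets. With Tnfrsf13c 1 of the 14 ran positive, Rel at 0.10 and 0.18, against 3.30% of all genes. Icosl had 3 of 14 light zone genes positive, against 3.39%: Cd83, the early activation gene Cd69 (0.12 and 0.16) and Rel (0.16 and 0.32), and 0 of them negative, against 2.87%. These 3 genes were also called given the number of genes above floor and, together with Basp1, with values under 1 tied. Cd40 had 4 light zone genes positive (Nfkbia, Nfkbie, Icam1 and Rel) and 1 negative (Slamf1), against 7.24% and 2.89%. Given the number of genes above floor it had 2 and 1, against 4.77% each. With values under 1 tied it had 1 and 1, against 4.51% and 3.87%. Il21r had 1 and 1, against 3.93% and 14.1%, and Tnfrsf13c 1 and 0, against 3.30% and 3.97%. Il4ra and Ifngr1 had 0 in either direction, against 2.81% and 3.95%, and 6.11% and 5.05%. Fas had 1 light zone gene positive, Basp1, against 5.10%, and 3 negative, Egr1, Icam1 and Relb, against 3.65%, and 0 of 3 ranked genes of its own death pathway in either direction.

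Genes known as targets of these cytokines were set beside the cytokine receptors, and 4 of 11 could be ranked. Bcl6, the master regulator of the germinal centre programme that interleukin 21 maintains, had rho of 0.21 and 0.15 with Il21r, and Fcer2a, which encodes CD23 and is an interleukin 4 target, had 0.22 and 0.13. These 2 of 4 were positive, against 3.93% of all genes, and Bcl6 was found in 67.7% of cells with Il21r and in 47.7% of the others. Given the number of genes above floor, rho of Bcl6 was 0.17 and 0.08, so that it was no longer called, and Fcer2a had 0.20 and 0.11. With Il4ra and with Ifngr1 0 of the 4 ran positive, against 2.81% and 6.11% of all genes, and 0 ran negative. Of 8 ranked Janus kinase and STAT genes, 2 ran negative with Il21r, Jak2 (-0.12 and -0.18) and Stat5b (-0.15 and -0.12), against 14.1% of all genes, and with values under 1 tied 0 of the 8 did, against 9.16%.

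Isotype was read from the heavy chain constant genes in 169 cells, of which 123 were dominated by Ighm and 41 by a switched gene. By the rule of 10 points in both sets 0 of the 7 genes were called in either direction, against 3.79% of genes higher and 3.09% lower in switched cells. Fas was found in 61.0% of switched cells (interval 44.5 to 75.8) and in 47.2% of Ighm cells (38.1 to 56.4), a difference of 9.74 points in set 1 and 16.7 in set 2. Icosl differed by -4.87 points in set 1 and 19.1 in set 2, and Ifngr1 by 14.8 and -4.36, so neither kept its direction. Intervals overlapped for all 7 genes over all cells. With dominance set at over 80% of the heavy chain sum, 0 of the 7 were called as well, against 5.07% of genes higher and 5.12% lower.

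Within the switched cells the classes were small. All 5 cells dominated by Ighg3 had Ifngr1. Of the 9 cells dominated by Ighg2c, the class that interferon gamma favours, 3 had Ifngr1 and 7 had Fas, and 0 had Cd40 or Icosl. With 9 cells the exact interval of either share still reaches up to 33.6%. Of the 14 cells dominated by Ighg1, the class that interleukin 4 favours, 4 had Il4ra and 5 had Icosl. Cells with Myc, a gene of recently selected cells, numbered 34, and they had Il21r in 35.3% against 56.8% of the others, by -5.95 points in set 1 and -30.5 in set 2. Cd40 was found in 35.3% of Myc cells and 20.3% of the others, by -2.38 and 23.6 points in the sets, and 0 of the 7 genes were called against 5.08% of genes higher and 3.72% lower.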

How the data were processed

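The deposited table holds 1 normalized, non-log expression signal per gene and cell, made by the authors. TopHat2 2.0, Cufflinks 2.2, Cuffdiff and the build mm10 are named in the submitters' processing notes; for the annotation, the normalization and any scaling by length, the sources used here give no statement. The table has no counts, so read depth is unknown, and 0 columns were left unmapped.

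From these values the share of cells at 1 or more was computed with an exact 95% Clopper-Pearson interval, Spearman's rho, and Pearson's r of log2(value + 1). There are no p-values, because no label ties cells to animals. Scores are mean z-scores of log2(value + 1). A partial rho accounts for the set and for the number of genes above floor, both ranked. Dominant isotype means over 50% of a heavy chain sum of at least 10. Genes found in at least 10% of cells (in each set, for rho) served as background. Alternatives were a minimum of 5 or the floor, pseudocounts of 0.1 and 10, 80% dominance, each set alone, and cells with both genes. Tied values under 1, calls given genes above floor within sets, leaving out cell 122 (highest summed value) and leaving out the cells with at least 2 myeloid genes were chosen after seeing the data.

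The members and all gene lists were chosen with earlier results of these data known. The genes named are the members, genes of those lists, and for each member the 3 genes with the highest lower rho of the 2 sets, immunoglobulin genes left out. The scripts were tested on simulated data. Python 3.11.15, pandas 2.3.3 and scipy 1.17.1 were used; gene positions came from GENCODE M21 and promoters from RefSeq.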

Additional observations from a re-analysis of the deposited data

How the results depend on the processing

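The minimum that counts as having a gene set the shares. At a value of at least 5 they were 58.2% for Tnfrsf13c, 38.5% for Il21r, 35.2% for Fas, 26.4% for Ifngr1, 18.7% for Il4ra, 12.1% for Cd40 and 11.5% for Icosl, with 2.01 genes per cell. Counting every value above the floor gave 87.9% for Tnfrsf13c, 62.6% for Il21r, 53.8% for Ifngr1, 39.6% for Il4ra and 26.4% for Icosl, with 3.53 genes per cell; Fas and Cd40 moved by less than their intervals. The Il21r difference between Cd83-only and Cxcr4-only cells was -14.5 points in set 2. The rho of Cd40 and Icosl, -0.04 over all cells, was 0.12 in set 1, 0.14 in set 2, 0.10 given set and genes above floor and 0.11 with values under 1 tied, and Pearson's r was 0.073, 0.095 and 0.040 with pseudocounts of 1, 0.1 and 10. Of 136 alternative values of the shares, genes per cell, class differences, median pair relation and pair counts, 121 stayed within the 95% interval over cells of the main value (counts: within 1.5 times), as did 313 of 379 alternative values of single relations and list counts. Leaving out cell 122, or the 7 cells with at least 2 myeloid genes, moved none of these beyond that range. Removing so few cells can shift a share or rho only a little against an interval over all cells. This outcome was therefore close to fixed beforehand and does not show that the values are stable. Each of these 2 settings gave 23 of the 136 and 35 of the 379 values, all counted as within the range. No paired analysis was possible because the cells form 1 group. Depth limits the shares: a cell without a gene at 1 or more may still express it.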
